A study of Mus musculus with 617 samples.

Results

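The motor neuron identity genes are 9 genes chosen by name, Isl1, Isl2, Mnx1, Lhx3, Olig2, Neurog2, Phox2a, Chat and Slc18a3. Each was found once among the 43628 gene IDs of 4 tables of single-cell RNA-seq values from mouse. The 617 cells fall into 13 groups. A female and a male embryonic stem (ES) cell line, both with a father of strain CAST/EiJ and a mother of strain C57BL/6J, gave 8 cultures. Medium with 2i and LIF held 60 female and 51 male ES cells, and medium with serum and LIF held 68 and 52. Growth in Activin A and FGF2 gave the epiblast stem cells labelled Epi (79 and 63 cells), and the cells labelled motor neuron numbered 39 and 35. The motor neuron cells came out of embryoid bodies treated with retinoic acid and the smoothened agonist SAG, and the labels state that several kinds of interneuron arise in the same procedure. A further female Epi culture was kept for 7 passages (41 cells, same cross). Embryo cells were E3.5 inner cell mass (23) and E4.5 epiblast (23) of the same cross, and E5.5 epiblast (20 female, 63 male) with C57BL/6J parents on both sides. Each line stands for 1 sex and was sampled once in each state, so sex, line and culture cannot be told apart, and cells of a culture are not replicates.

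Spinal motor neurons arise from Olig2 progenitors that switch on Neurog2, leave the cell cycle and then turn on Mnx1, Isl1, Isl2 and Lhx3. In the hindbrain, visceral and branchial motor neurons use Phox2a and Isl1 and lack Mnx1 and Lhx3. Both kinds release acetylcholine, which Chat synthesises and the transporter Slc18a3 (VAChT) loads into vesicles. Isl1 is shared with other neurons, sensory and sympathetic ones among them, so it does not mark motor neurons by itself.

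The regions before the transcription starts are shown for Isl1 and Slc18a3, the members with the highest levels, and for Phox2a and Mnx1, which stand for the visceral and the spinal kind. Each is the stretch from 250 to 11 bases before the RefSeq start in GRCm38.p6, 5′ to 3′ on the strand of the gene. Capitals mark TAAT or its reverse complement ATTA, the core that many homeodomain proteins recognise, and CAGCTG, an E-box; CAGATG and its reverse complement CATCTG were searched as well. The 3 motifs do not overlap in these stretches. Isl1 is read on the minus strand at chr13:116309699-116309938, Slc18a3 on the minus strand at chr14:32464861-32465100, Phox2a on the plus strand at chr7:101818063-101818302 and Mnx1 on the minus strand at chr5:29478481-29478720.
Isl1: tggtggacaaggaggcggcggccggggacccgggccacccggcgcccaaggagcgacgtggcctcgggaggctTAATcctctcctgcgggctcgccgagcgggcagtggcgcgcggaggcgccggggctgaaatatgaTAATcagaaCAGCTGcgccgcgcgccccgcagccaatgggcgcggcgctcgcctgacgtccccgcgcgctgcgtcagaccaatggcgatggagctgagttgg
Slc18a3: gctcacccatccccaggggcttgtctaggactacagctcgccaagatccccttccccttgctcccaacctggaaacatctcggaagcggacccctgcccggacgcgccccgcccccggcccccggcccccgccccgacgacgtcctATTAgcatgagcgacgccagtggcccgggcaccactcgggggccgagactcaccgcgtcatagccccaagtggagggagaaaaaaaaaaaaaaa
Phox2a: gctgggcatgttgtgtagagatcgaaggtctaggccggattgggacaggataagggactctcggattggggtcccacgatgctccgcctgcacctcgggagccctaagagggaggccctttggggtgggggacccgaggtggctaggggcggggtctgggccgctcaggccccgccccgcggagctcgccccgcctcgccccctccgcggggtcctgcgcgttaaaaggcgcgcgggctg
Mnx1: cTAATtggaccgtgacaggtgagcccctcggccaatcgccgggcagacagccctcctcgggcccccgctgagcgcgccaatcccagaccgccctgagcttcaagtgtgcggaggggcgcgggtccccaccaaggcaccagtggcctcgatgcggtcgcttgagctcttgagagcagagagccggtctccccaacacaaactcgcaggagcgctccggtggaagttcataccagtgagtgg
The Isl1 stretch held 2 TAAT cores and 1 CAGCTG, those of Slc18a3 and Mnx1 held 1 TAAT core each, and that of Phox2a held none of the 3 motifs. TAAT or its complement occurred in 54.2% of 32851 RefSeq stretches of the same length, CAGCTG in 12.4% and CAGATG in 14.1%. The 4 stretches are rich in G and C, at 65.4% (Slc18a3) to 72.1% (Isl1).

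In GENCODE vM21, on the mm10 assembly that the submitters' processing notes name, Isl1 lies at chr13:116298281-116309689, Isl2 at chr9:55538672-55546180, Mnx1 at chr5:29473034-29478470 and Lhx3 at chr2:26200212-26208289. Olig2 lies at chr16:91225457-91228677, Neurog2 at chr3:127633135-127635631 and Phox2a at chr7:101818313-101822726. Chat spans chr14:32408203-32465989, and Slc18a3 at chr14:32462438-32464850 sits inside the first intron of 4 of the 8 annotated Chat transcripts, on the same strand. The 2 genes share 0 exon bases. Phox2a shares 95 exon bases with Inppl1 and Lhx3 shares 188 with Gm27196, each on the opposite strand; strand-specific counting is not stated in the sources used here, so reads there cannot be assigned to one of the pair.

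Values are FPKM, fragments per kilobase of transcript scaled to the size of the library, and a gene is called detected in a cell at 1 FPKM or more. Intervals beside shares of cells are exact (Clopper-Pearson, 95%) and cover counting error only. The number of genes detected per cell had medians of 9313 in the female and 9234 in the male motor neuron culture, against 9444 and 9645 in serum. The lowest recurring value of single-transcript genes was read as 1 fragment. On a transcript of 1 kilobase, 1 fragment was worth 0.379 FPKM in the median female motor neuron cell and 0.515 in the median male one. It ranged from 0.0977 to 3.02 and from 0.162 to 2.39 over their cells. A fragment is worth less on a longer transcript. For Isl1 and Chat it was worth at most 0.763 and 0.643 FPKM in any motor neuron cell, and for Phox2a up to 1.49. A value of 1 FPKM thus rests on several fragments in some cells, and for some members on less than 1 in others.

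For 6 members, Isl1, Isl2, Mnx1, Phox2a, Chat and Slc18a3, the highest mean of the 13 groups was in a motor neuron culture, as for 37.4% of the 34683 genes above 0 in any group. Both motor neuron cultures stood above all other groups for 5 of the 9 members, against 17.2% of those genes; for Isl2 the female culture (1.48 FPKM) was below female E5.5 epiblast (1.91). The FPKM of a cell summed to a median of 1.33e+06 and 1.48e+06 in the female and male motor neuron cultures and to 793153 to 961113 in the other 6 cultures of the lines, and the part of these sums in the order of the groups was not tested. The 4 tables were normalised separately, so levels set across tables are approximate. In the female culture the order of mean FPKM over cells was Isl1 (129.1 ± 275.7, SD over 39 cells), Slc18a3 (32.6 ± 76.6), Phox2a (4.42 ± 19.7), Chat (2.73 ± 8.26), Mnx1 (1.59 ± 6.62) and Isl2 (1.48 ± 5.62). In the male culture it was Isl1 (190.3 ± 310.0, SD over 35 cells), Slc18a3 (157.0 ± 214.7), Phox2a (10.5 ± 24.4), Chat (9.59 ± 16.4), Isl2 (7.27 ± 23.2) and Mnx1 (0.877 ± 3.20). Phox2a and Chat, neighbours in both orders, differed by less within a line than either did between the lines, and Mnx1 and Isl2 change places. Lhx3, Olig2 and Neurog2 averaged 0.0199, 0.172 and 0.0692 FPKM in the female culture and were at 0 in all 35 male cells. A culture mean joins the share of cells that use a gene with its level in them; the single cells below separate the 2.

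**Figure D1:**
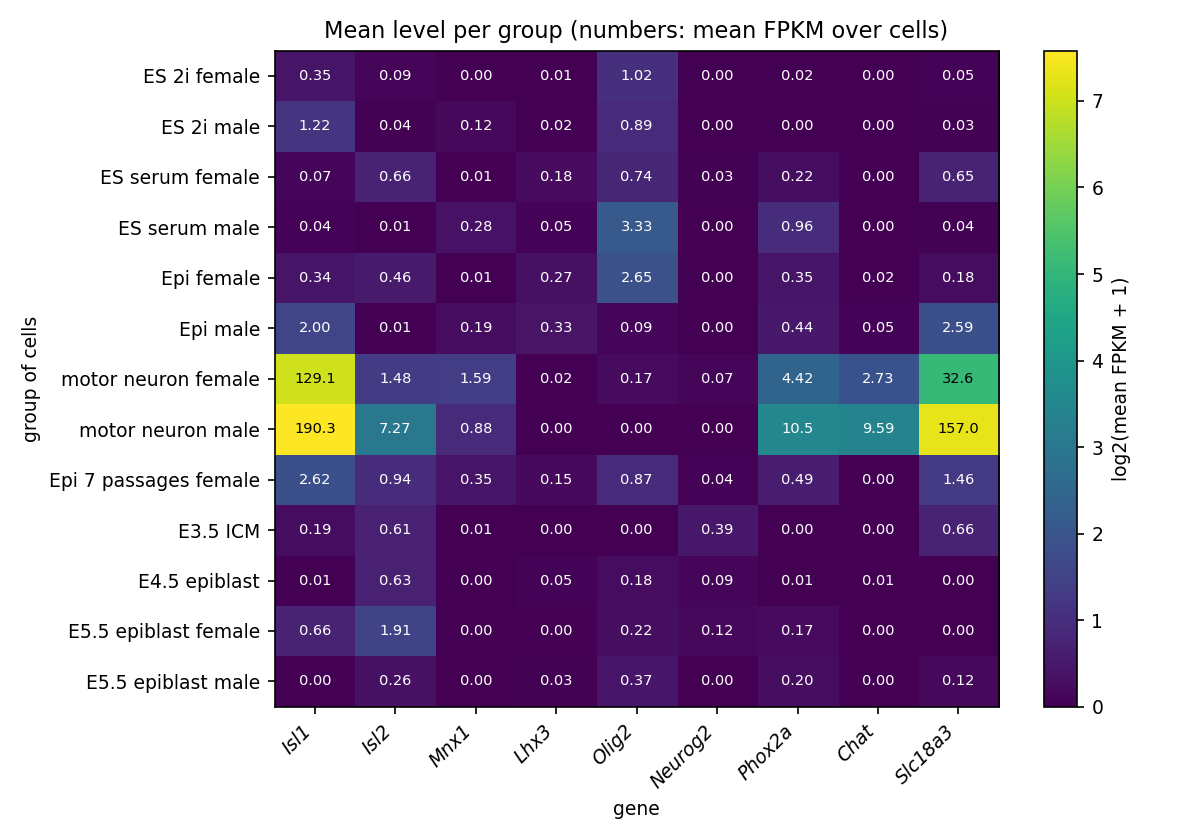
Mean FPKM over cells of the 9 genes (columns) in the 13 groups (rows); colour is log2(mean FPKM + 1) and the printed numbers are mean FPKM. Isl1 stands at 129.1 and 190.3 in the motor neuron cultures and at 2.62 or less elsewhere, while Olig2 is highest in male serum cells (3.33) and female Epi cells (2.65).

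Motor neuron differentiation was set against serum ES cells with limma on log2(mean FPKM + 1) of each culture, over 8 cultures, and the call of a gene needed both an adjusted p below 0.05 and a log2 change of 1 or more in size. Of the 9 members, 6 passed the filter of a mean of 1 FPKM over the 8 cultures, and 4 of these were called higher and 0 lower. Of the 6, all but Olig2 averaged less than 1 FPKM over the other 6 cultures and so passed only through the motor neuron cultures; the filter thus favoured members that were higher there, and nothing is read from their count. Over all 15504 genes tested 30.1% were called higher and 2.7% lower, with a median log2 change of 0.71. Of all calls 91.8% were higher; with upper-quartile scaling, which moved the median of all genes to 0, it was 57.5%, and 4 members were called there too. Isl1, the LIM homeodomain factor of postmitotic motor neurons, averaged 0.351 and 1.22 FPKM in female and male 2i cells, 0.0680 and 0.0440 in serum cells, 0.344 and 2.00 in Epi cells, and 129.1 and 190.3 in motor neuron cells. It rose by 7.22 (SE 0.48, limma adjusted p = 0.00211, higher in both lines). Both motor neuron cultures lie far above the other 6 cultures.

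Slc18a3, the vesicular acetylcholine transporter, averaged 0.0534 and 0.0278 FPKM in 2i cells, 0.654 and 0.0372 in serum cells, 0.183 and 2.59 in Epi cells, and 32.6 and 157.0 in motor neuron cells. It rose by 5.80 (SE 0.83, limma adjusted p = 0.00488), by 4.35 in the female and 7.25 in the male line. Chat, choline acetyltransferase, was listed at 0 in both 2i cultures, averaged 0.00439 and 0.00180 FPKM in serum cells and 0.0168 and 0.0505 in Epi cells, and reached 2.73 and 9.59 in motor neuron cells. Chat rose by 2.65 (SE 0.53, limma adjusted p = 0.0120), by 1.89 in the female and 3.40 in the male line. Both motor neuron cultures were above the other 6 for these 2 cholinergic genes, as they were for 5 of the 6 members tested (all but Olig2) and for 40.1% of all genes tested. Without the female or the male serum culture the Chat change was 2.65 or 2.64 but not called (limma adjusted p = 0.0700 or 0.0669).

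Phox2a, a paired-like homeodomain factor of visceral and branchial motor neurons, averaged 0.0204 and 8.29e-05 FPKM in 2i cells, 0.224 and 0.960 in serum cells, 0.347 and 0.438 in Epi cells, and 4.42 and 10.5 in motor neuron cells. It rose by 2.35 (SE 0.47, limma adjusted p = 0.0120), by 2.15 in the female and 2.55 in the male line. The call was lost without the female serum culture (limma adjusted p = 0.0806), with means of log2 values over cells (a change of 0.72, adjusted p = 0.0824) and with each cell rescaled to 1 sum (adjusted p = 0.0508). Isl2, the second islet factor, changed by 1.81 (SE 0.63) and was not called (limma adjusted p = 0.0660); its lines differed, at 0.58 in the female and 3.04 in the male. Without the female motor neuron culture, Isl2 was called (2.68, limma adjusted p = 0.0106). Olig2, the basic helix-loop-helix factor of motor neuron progenitors, changed by -0.57 in the female and -2.11 in the male line and was not called (-1.34, SE 0.68, limma adjusted p = 0.169). Mnx1, Lhx3 and Neurog2 were below the filter.

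**Figure D2:**
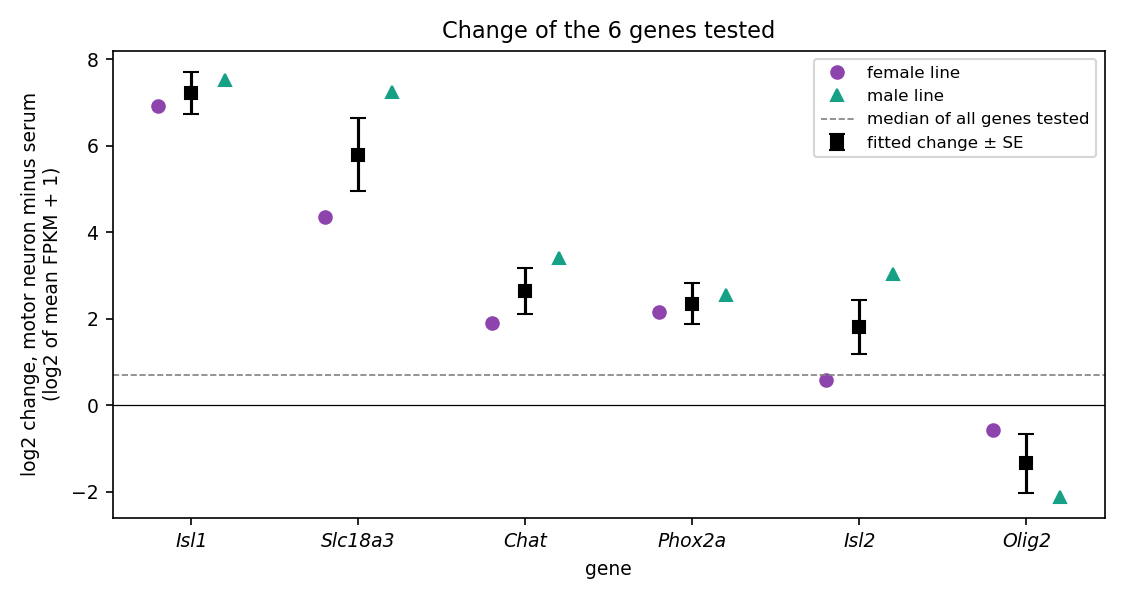
Log2 change from serum ES cells to motor neuron cultures, on log2(mean FPKM + 1), for the 6 members tested; squares are the fitted change with its SE, circles the female and triangles the male line, and the dashed line is the median of all genes tested (0.71). Isl1, Slc18a3, Chat and Phox2a were called; Isl2 and Olig2 were not.

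Genes with related roles were described from lists. Of all 15504 genes tested 30.1% were called higher, and the counts of each list stand beside that share. Of 6 other cholinergic genes, all were tested and 5 were called higher; all 6 passed the filter only through the motor neuron cultures. These were Slc5a7, which takes up choline (3.64, SE 0.40), Ache, which breaks acetylcholine down (4.95, SE 0.78), its membrane anchor Prima1 (3.48, SE 0.39), Slc10a4 (3.10, SE 0.57) and the nicotinic receptor gene Chrna3 (3.93, SE 0.78); their limma adjusted p ran from 0.00305 to 0.0119. Chrnb4 was at 1.99 (SE 0.73, limma adjusted p = 0.0766). Of 7 motor axon genes, 6 were tested and 5 called higher; 2 of the 6 passed the filter only through the motor neuron cultures. The intermediate filament gene Prph went from 7.55 and 6.81 FPKM in female and male serum cells to 260.1 and 483.0. Ret and Gfra1, a growth factor receptor and its partner, changed by 4.01 and 3.81, and Slit2 and Slit3 by 4.40 and 4.05. Calca, at -1.24 (SE 0.53, limma adjusted p = 0.115), was not called.

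Of 8 other spinal and LIM partner genes, 7 were tested and 2 called higher, against 30.1% of all genes tested. These 2 were Onecut1 (3.06, SE 0.50, limma adjusted p = 0.00694) and Onecut2 (4.20, SE 0.31, limma adjusted p = 0.00211), which are also used outside the spinal cord. Both passed the filter only through the motor neuron cultures. The partners Ldb1 and Lmo4 were at 0.59 and 2.28, Foxp1 at 1.24 and Aldh1a2 at 1.59, none of them called. Of 9 ventral progenitor genes, 4 were tested. Nkx6-1, used by progenitors and by some motor neurons, was called higher (2.14, SE 0.49, limma adjusted p = 0.0181) and Olig1 lower (-2.74, SE 0.68, limma adjusted p = 0.0240). Nkx6-1 was the 1 of these 4 that passed the filter only through the motor neuron cultures. Nkx6-2 was at 1.62 (SE 0.64, limma adjusted p = 0.0927) and was not called. Olig1 stood at 3.17 and 13.0 FPKM in female and male serum cells and at 0.306 and 0 in motor neuron cells.

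The label was checked against cell type markers in the 74 motor neuron cells. All 10 neuron markers were called higher against serum, but so were 6 of 10 endoderm markers, of which 7 were tested, and 30.1% of all genes tested. Some of these markers, Dcx and Ttr among them, passed the filter only through the motor neuron cultures. Clustering without the members and related lists split the cells into 3. The first (7 female and 15 male cells) had all 10 neuron markers in at least 50% of its cells and a summed neuron level of 10607 to 20909 FPKM. Its leading genes were Elavl4, Resp18 and Scg5, and it is called neuron-like. The endoderm markers Sox17 and Dab2 and the pluripotency marker Dppa5a were also in at least 50% of its cells, with a summed endoderm level of 0 to 361.4 FPKM. The third (13 and 17 cells), with Sox17, Foxa2, Gata4, Gata6, Cubn, Ttr and Dab2 in at least 50% of its cells, is called endoderm-like. Its summed endoderm level was 449.4 to 4941 FPKM. The neuron markers Tubb3, Stmn2, Nefl, Nefm and Ina were also in at least 50% of its cells, with a summed neuron level of 11.2 to 1735 FPKM. The second (19 and 3 cells), with neuron, pluripotency and mesenchyme markers together, stays unnamed. Neuron-like cells made up 17.9% of the female (7.54 to 33.5%) and 42.9% of the male culture (26.3 to 60.6%), so most cells of both cultures were not neuron-like.

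The summed FPKM of 5 members lay mainly in the neuron-like cells. In the female culture these 7 cells held 96.95% of the Isl1 signal, 87.2% of Slc18a3, 99.9% of Chat, 89.1% of Phox2a and 98.4% of Mnx1. In the male culture the 15 cells held 97.1%, 97.8%, 99.96%, 98.2% and 85.7%. Isl2 differed: 51.4% of its signal in the female and 66.2% in the male culture was in neuron-like cells. At 10 FPKM or more, Isl2 was found in 3 neuron-like and 7 endoderm-like cells over both lines. The mean over all cells was higher in the male culture for Isl1, Slc18a3, Chat, Phox2a and Isl2, but not for Mnx1 (0.877 against 1.59 FPKM). The male culture also had more neuron-like cells, and their part in the difference between the lines was not tested.

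**Figure D3:**
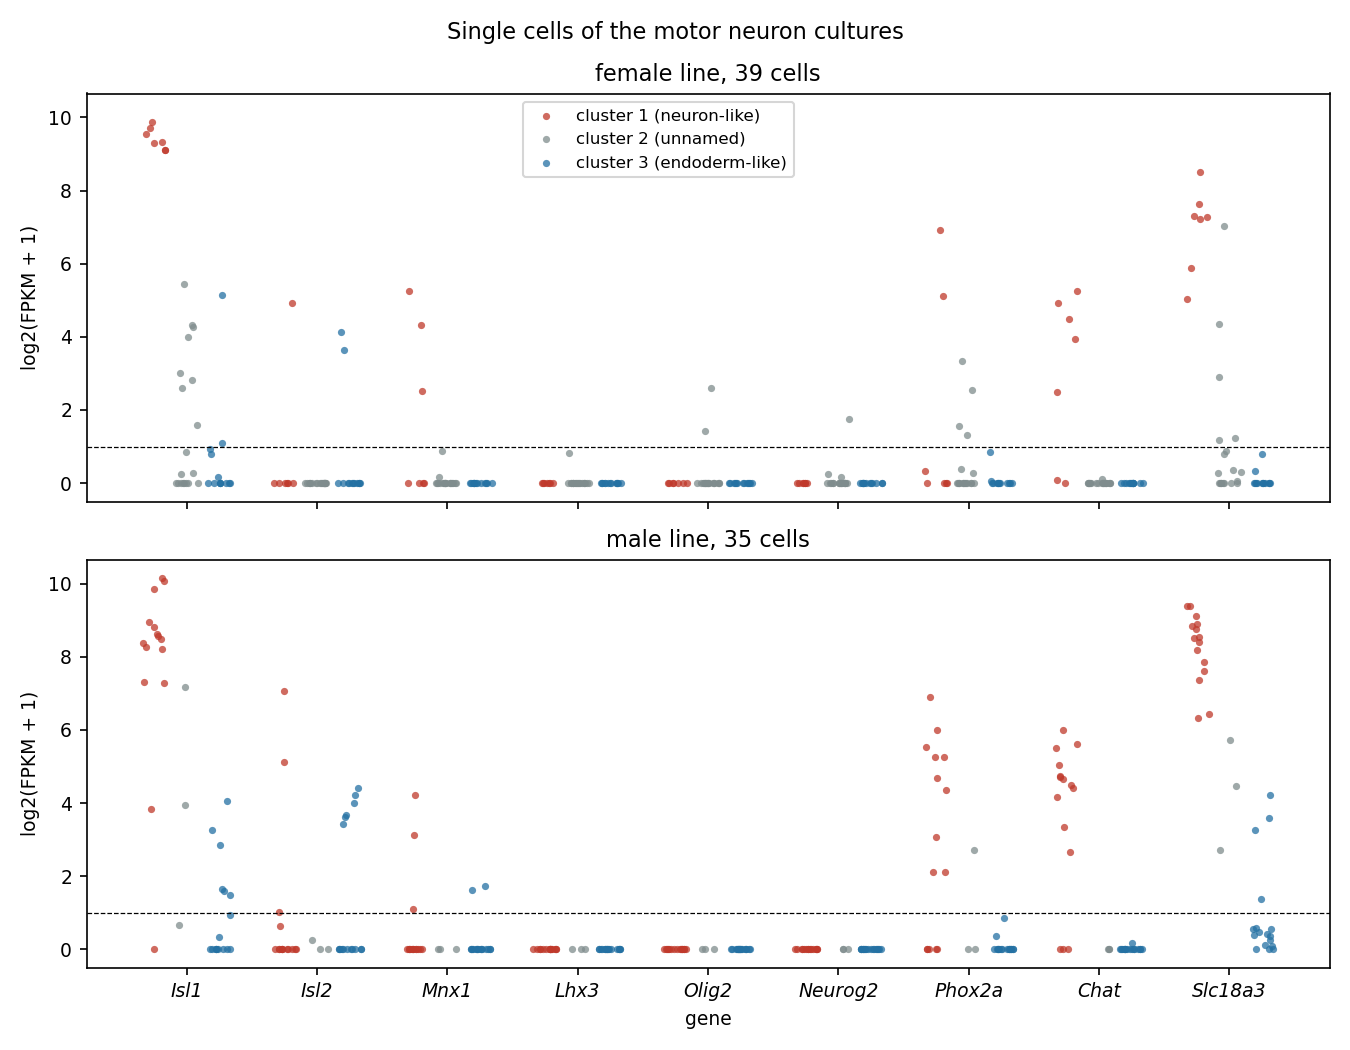
Log2(FPKM + 1) of each gene in each of the 39 female (top) and 35 male (bottom) cells; colours are the 3 clusters and the dashed line is 1 FPKM. Isl1 and Slc18a3 are high in nearly all neuron-like cells. Chat is at 1 FPKM or more in 5 of 7 female and 12 of 15 male neuron-like cells, and Phox2a in 2 and 10 of them. Isl2 reaches 10 FPKM in 5 male endoderm-like cells, and Lhx3 is below the line in every cell.

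Isl1 was high in nearly every neuron-like cell. It ranged from 547.8 through a median of 640.9 to 940.6 FPKM in the 7 female cells, and from 0 through 354.0 to 1132 in the 15 male cells. All 7 female and 14 of 15 male cells passed 10 FPKM; the male cell at 0 had 7.46 FPKM of Phox2a and 673.6 of Slc18a3. Outside the neuron-like cells, 10 female and 8 male cells had Isl1 at 1 FPKM or more, up to 42.6 and 142.98 FPKM.

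Slc18a3 was the one member found in all 22 neuron-like cells, at 31.5 to 365.9 FPKM (median 152.7) in the female and 78.4 to 673.6 (median 362.6) in the male cells. Chat was detected in 5 of 7 female cells (median 14.3, highest 36.8) and 12 of 15 male cells (median 21.4, highest 62.6). Each of the 17 cells with Chat also had Slc18a3, and no cell outside the neuron-like cluster reached 1 FPKM of Chat. Chat, Slc18a3 and the choline transporter Slc5a7 were together in 5 female and 11 male cells. Slc18a3 without Chat was seen in 5 neuron-like cells; in them 3 fragments of Chat, the size a count of 0 allows, amounted to no more than 1.53 FPKM, the highest such value over all neuron-like cells. Over all cells of a line, the log2 values of Chat and Slc18a3 had a Pearson r of 0.78 (39 female cells) and 0.80 (35 male cells). Within the neuron-like cells r was 0.86 (7) and 0.60 (15); the cells of a line share a culture and differ in depth, and the genes share a locus.

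Phox2a was detected in 10 of the 15 male neuron-like cells, from 3.32 to 118.5 FPKM, with a median over the 15 of 7.46. In the 7 female cells it was detected in 2, at 33.9 and 119.5 FPKM. Its highest values were thus alike in both lines, and it was absent at 1 FPKM from 5 neuron-like cells of each. Tbx20, a T-box factor used by hindbrain motor neurons, was detected in 8 male neuron-like cells, 6 of them with Phox2a, and in 1 female cell without it. Tbx20 was not particular to neuron-like cells, as 8 of 19 female cells of the unnamed cluster had it, up to 11.2 FPKM. Tbx2, listed with it, was detected in 3 of 7 female and 4 of 15 male neuron-like cells. Gata2 and Gata3, from the same list, were tested against serum and not called. Nkx6-1 was detected in 12 male and 2 female neuron-like cells.

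Mnx1, which stabilises the somatic motor neuron fate, was found in 3 neuron-like cells of each line. The female values were 37.1, 19.04 and 4.69 FPKM, and the male ones 17.5, 7.67 and 1.14. In the cell at 1.14 FPKM, 3 Mnx1 fragments were worth 3.07 FPKM, so that detection rests on fewer than 3 fragments. In the female cells Mnx1 was found in 3 and Phox2a in 2, while in the male cells Mnx1 was found in 3 and Phox2a in 10. Lhx3, the LIM partner of Isl1 in spinal motor neurons, was at 0 in all 22 neuron-like cells. Finding it in 0 of 22 cells still allows a share of up to 13.6% among such cells of the cultures. Separately, 3 Lhx3 fragments were worth up to 2.36 FPKM in the 22 cells, so lower levels could be missed. Its relative Lhx4 was detected in 4 male neuron-like cells, with a highest value of 32.9 FPKM, and Phox2a was detected in all 4 of them. Olig2 and Neurog2 were at 0 in all 22; Olig2 reached 1 FPKM in 2 and Neurog2 in 1 of the female cells of the unnamed cluster.

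Counting each neuron-like cell once at 1 FPKM, 8 of the 15 male cells had Phox2a without Mnx1, 1 had Mnx1 alone, 2 had both and 4 neither. Of the 7 female cells, 2 had Phox2a alone, 3 had Mnx1 alone, 0 had both and 2 neither. At 10 FPKM the male numbers were 7, 1, 0 and 7, and the female ones 2, 2, 0 and 3. The male cell with the most Isl2 (132.7 FPKM) was one of those with both, at 7.67 FPKM of Mnx1 and 3.37 of Phox2a. It also had the most genes of all motor neuron cells, 12914. The other cell with both had Mnx1 at 1.14 FPKM, fewer than 3 fragments, so the class of cells with both is weakly founded. The male cell with 17.5 FPKM of Mnx1 had 34.1 of Isl2 and no Phox2a, a combination known from spinal motor neurons. Among the 8 male cells with Phox2a alone, Isl1 ran from 0 to 1077 FPKM (median 343.0), Slc18a3 from 84.8 to 673.6 (median 313.8) and Chat from 0 to 62.6 (median 22.2). The 3 female cells with Mnx1 alone had Isl1 at 547.8, 630.2 and 829.1, Slc18a3 at 152.7, 147.7 and 365.9, and Chat at 36.8, 14.3 and 21.3. Isl2 was at 0 in all 3, unlike in the male cell with Mnx1 alone. Cholinergic genes were present in cells with either gene, and in the 4 male cells with neither Slc18a3 ran from 78.4 to 668.2 FPKM.

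**Figure D4:**
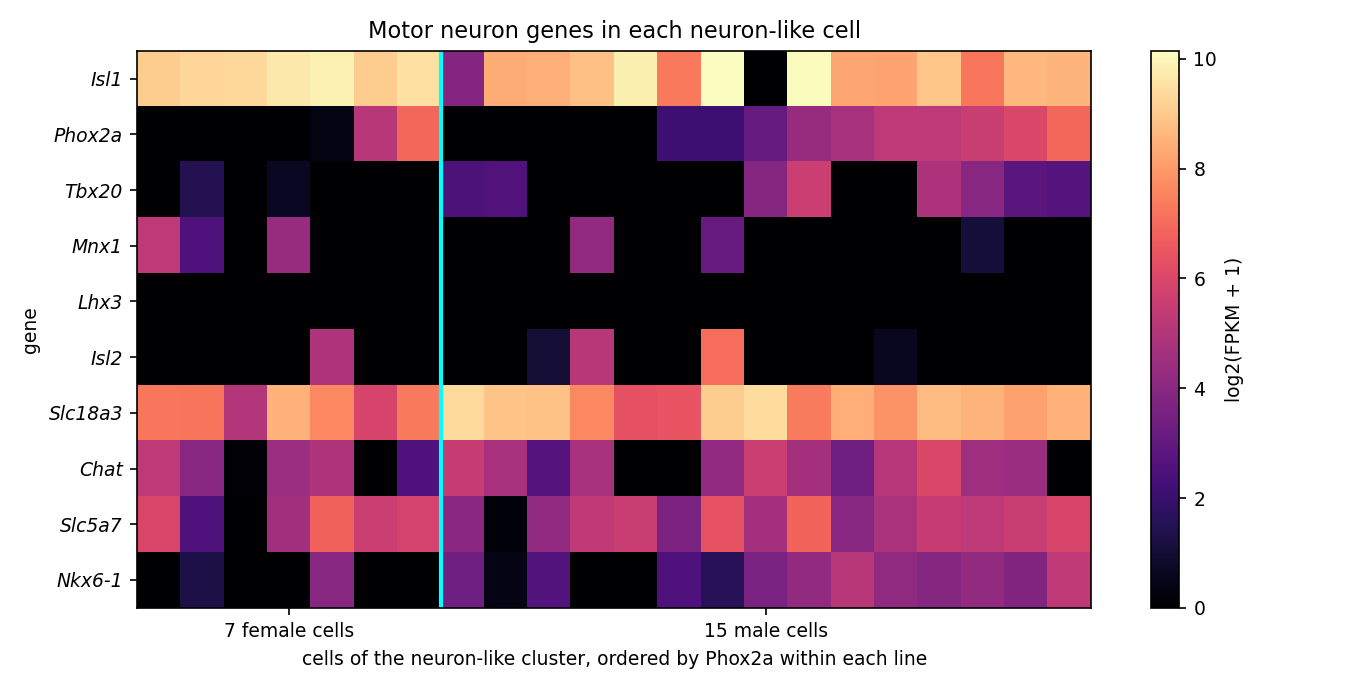
Log2(FPKM + 1) of 10 genes (rows) in each of the 22 neuron-like cells (columns), 7 female to the left and 15 male to the right of the line, ordered by Phox2a within a line. Isl1 and Slc18a3 are high nearly throughout, Phox2a is at 10 FPKM or more in 7 male and 2 female cells, Mnx1 is at 1 FPKM or more in 3 cells of each line, and Lhx3 is at 0 in every cell.

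Over all cells of the cultures, Isl1 was detected in 17 of 39 female and 22 of 35 male cells. Phox2a accompanied it in 4 of 17 female cells (23.5%, 6.81 to 49.9%) and 9 of 22 male cells (40.9%, 20.7 to 63.6%). Mnx1 accompanied it in 3 of 17 (17.6%, 3.80 to 43.4%) and 4 of 22 (18.2%, 5.19 to 40.3%), and Lhx3 in 0 of either. Both Phox2a and Mnx1 were seen with Isl1 in 0 female and 2 male cells, and neither in 10 and 11. The intervals of the 2 lines overlap for each share. With 1 culture a line, the difference between the lines was not tested. At 10 FPKM, 2 of 12 female and 7 of 17 male Isl1 cells had Phox2a, and 2 of 12 and 1 of 17 had Mnx1.

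Low values of these genes also occurred in endoderm-like cells. In the 17 male endoderm-like cells, Isl1 reached 1 FPKM in 6 (35.3%), Slc18a3 in 4 (23.5%), Mnx1 in 2 and Chat and Phox2a in 0; the highest values of the first 3 were 15.6, 17.6 and 2.33 FPKM. In the 13 female ones, Isl1 was found in 2 cells, up to 34.6 FPKM, and Slc18a3, Mnx1 and Phox2a in 0. These cells had a median of 8847 (female) and 8964 (male) genes, against 9476 and 9714 in neuron-like cells. At 10 FPKM or more, Isl1 was left in 1 and Slc18a3 in 2 of the 17 male endoderm-like cells. In the 19 female cells of the unnamed cluster, Isl1 reached 1 FPKM in 8, Slc18a3 in 5 and Phox2a in 4. Their highest values there were 42.6, 130.5 and 9.11 FPKM. Of the 3 male cells of that cluster, Isl1 reached 1 FPKM in 2, Slc18a3 in 3 and Phox2a in 1. Shares at 1 FPKM over all cells of either line are read against this background. The titles number the cells in 2 runs per culture, whose meaning the labels do not give. In the lower and higher run the share of Isl1 cells with Phox2a was 22.2 and 25% in the female and 36.4 and 45.5% in the male culture. The share with Mnx1 or Lhx3 was 33.3 and 0% in the female and 27.3 and 9.09% in the male culture.

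**Figure D5:**
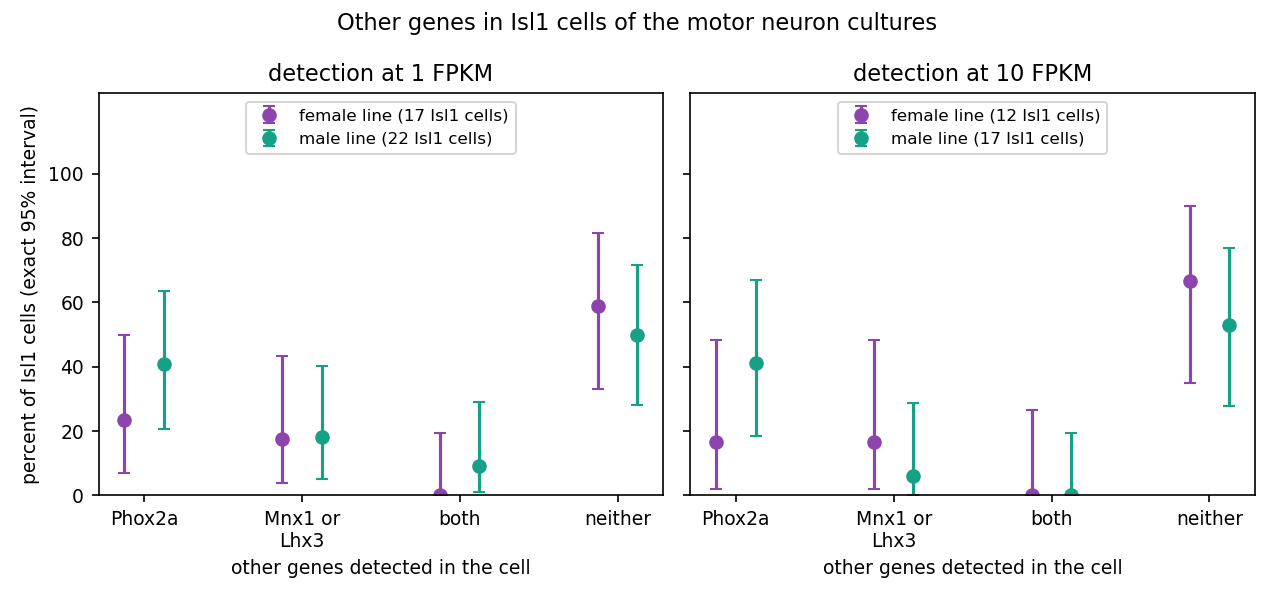
Percent of Isl1 cells in which the genes named on the x axis were also detected, at 1 FPKM (left) and 10 FPKM (right); points are shares of cells, bars exact 95% intervals, circles in purple the female and in green the male line. The male line is at 40.9 and 41.2% for Phox2a, the female line at 23.5 and 16.7%, with overlapping intervals.

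Markers of other neurons that use Isl1 or Phox2a were read in the same 22 cells. Of the noradrenergic list, Dbh was at 0 in all 74 cells, Th was detected in 1 male cell (19.97 FPKM) and Hand2 in 1 neuron-like cell of each line, at 20.02 FPKM in the female and 1.34 in the male one. Ddc, which is also expressed outside neurons, was detected in 1 of 7 female and 4 of 15 male neuron-like cells, up to 47.9 FPKM, and in 11 of 13 female and 12 of 17 male endoderm-like cells, up to 562.1. Slc6a2 was below 1 FPKM in all neuron-like cells. The 5 noradrenergic markers summed to 0 to 47.9 FPKM per neuron-like cell, with a median of 0. Of the sensory neuron list, Pou4f1 was detected in 2 of 7 female cells, up to 189.7 FPKM, and in 7 of 15 male neuron-like cells, up to 26.7, and Ntrk3 in at least 50% of the 22. The 5 sensory markers summed to 0 to 322.4 FPKM per neuron-like cell (median 50.8), and none of the 5 was at 0 throughout. Of 16 interneuron markers, 9 were at 0 in all neuron-like cells, among them Evx1, Gad1, Slc32a1 and Slc17a6, and the 16 together summed to at most 23.2 FPKM per cell. What part these other neuron types have in the levels of Isl1 was not tested.

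The genes whose values ran most closely with each member over the cells were sought among 9678 genes, by the lower of the 2 lines' Pearson r (39 female and 35 male cells). For Isl1 these were Scg2, Onecut2, Fam19a2, Hspa12a and Scg3, with r from 0.84 to 0.88. For Slc18a3 they were Elavl3, Fgf13, Fam19a2, Disp2 and Ache (0.85 to 0.94), and for Chat Dnajc6, Tmem178b, Bsn, Disp2 and Apba1 (0.78 to 0.85). For Phox2a the first was Chrna3 (0.65 female, 0.69 male). For Isl2 the closest gene with a symbol, Snord87, had 0.34 and 0.33. Isl1 and Slc18a3 had 0.77 and 0.82 with each other. All these values are descriptions; the cells share cultures and differ in depth, and the split of neuron-like from other cells carries much of each r. Within the 15 male neuron-like cells, r was -0.27 between Mnx1 and Phox2a and 0.91 between Mnx1 and Isl2, both resting on the 3 cells with Mnx1. In the 7 female neuron-like cells the same pairs had -0.52 and -0.33, so Mnx1 and Isl2 differed in sign between the lines.

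Of the members before differentiation, Olig2 was the most often detected, in up to 41.8% of the cells of a group, followed by Slc18a3 in up to 31.7%. Olig2 was detected in 21 of 52 male serum cells (40.4%, mean 3.33 ± 5.24 FPKM, SD) and 33 of 79 female Epi cells (41.8%, 2.65 ± 4.32), but in 12 of 68 female serum cells (17.6%, 0.742 ± 2.06) and 2 of 63 male Epi cells (3.17%, 0.0940 ± 0.493). The female and male 2i cultures stood at 26.7 and 27.5% of cells. The line with the higher Olig2 was thus the male in serum and the female in Epi. In the embryo Olig2 was detected in 0 of 23 cells at E3.5, 1 of 23 at E4.5 and 1 of 20 female and 7 of 63 male cells at E5.5. Chat was below 1 FPKM in all pluripotent and embryo cells but 1 male Epi cell. Slc18a3 was detected in 20 of 63 male Epi cells (31.7%, 20.6 to 44.7%) against 4 of 79 female ones (5.06%) and had a highest value of 36.5 FPKM. Lhx3 reached 1 FPKM in 5 female and 2 male Epi cells, with maxima of 11.2 and 13.5 FPKM, all above its highest value of 0.776 in the motor neuron cultures.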

How the data were processed

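Single cells were sequenced with SMART-seq2 and Tn5 libraries, per the labels' protocols. The authors deposited FPKM values per gene and cell in 4 tables; STAR 2.4.1, Cufflinks and Cuffnorm 2.2.1 with mm10 are named in the submitters' processing notes, and no read counts were used here. Malformed exponents (356 values) were repaired. Members and lists were chosen with earlier results of these data known. All 9 members are named. A gene of the lists of related roles is named where it averaged at least 1 FPKM in both motor neuron cultures or was called. Lhx4, Tbx20, Tbx2, Gata2 and Gata3 were named after their values were seen. Of the listed genes 2 are not reported here and are left out of the counts, and the shares of Isl1 cells were read from Phox2a alone, other than first planned. Each culture was 1 sample: its mean FPKM over cells, as log2(mean + 1), entered limma 3.58.1 (R 4.3.3) over 8 cultures of 4 states, 4 residual degrees of freedom, Benjamini-Hochberg adjusted, for genes averaging 1 FPKM or more over cultures. A log2 change on this scale understates that of low genes. Whether the cultures are biological replicates is not stated beyond the 2 lines, so p-values measure the spread between lines. The line is the same across states and so pairs the cultures; the lines' deviations correlated between states at r of 0.06 to 0.16. Clusters came from Ward's method on 2000 variable genes (Python 3.11.15, scipy 1.17.1), without doublet removal. Code was tested on simulated data. Alternatives covered the pseudocount, filter, scaling, detection threshold, block and left-out cultures or cells.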

Additional observations from a re-analysis of the deposited data

Results flagged for a closer look

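Members were also read in groups outside the fit, and 3 of them averaged 1 FPKM or more there and above both serum cultures. Isl1 averaged 2.62 ± 9.46 FPKM (SD over 41 cells) in the female Epi culture of 7 passages, with 6 cells at 1 FPKM or more and a highest value of 57.6. Slc18a3 averaged 1.46 ± 3.08 FPKM in the same culture, with 11 of 41 cells at 1 FPKM or more. Isl2 averaged 1.91 ± 7.56 FPKM in female E5.5 epiblast, where 2 of 20 cells were at 1 FPKM or more and 1 cell held 33.9 FPKM. These tables were normalised separately from that of the serum cultures.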

How the results depend on the processing

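Isl1 and Slc18a3 were called under each of 18 alternatives (limma adjusted p 0.000574 to 0.0288 and 0.00240 to 0.0410). Their log2 changes, 7.22 and 5.80, ran from 3.34 to 9.98 and from 2.90 to 7.80; the lowest came with means of log2 values over cells and the highest with a pseudocount of 0.1. The number of genes called, 5088, was 3137 with each cell rescaled to a sum of 1000000, and 1669 to 5486 when 1 culture was left out (1669 without female and 1888 without male serum). Of the members, 4 were called; 2 were called with a filter of 5 FPKM, where 2 were tested, and 2 with rescaled cells, where 4 were tested. Leaving out 1 culture gave 2 to 5 members, with 2 without female serum or without male motor neuron. Fitting the line as a replicate block gave 5400 genes called and 4 members, and the block changed no member's call. Of 96 alternative changes of single members, 5 lost the threshold, 1 passed it and 90 did neither; none changed sign. The share of Isl1 cells with Mnx1 or Lhx3 in the female culture was 0% in the higher run of title numbers (8 Isl1 cells) and 33.3% in the lower, against 9.09 and 27.3% in the male culture. Omitting the cell with the most genes in each culture, chosen after seeing the data, gave 25 and 38.1% of female and male Isl1 cells with Phox2a. The cause of these differences was not tested. Depth limits low levels: in neuron-like cells 3 fragments were worth up to 1.53 FPKM for Chat, 2.36 for Lhx3, 3.19 for Mnx1 and 3.52 for Phox2a.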
